A study of Mus musculus with 4 samples.

Results

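Aminoacyl-tRNA synthetases are the enzymes that load each amino acid onto its tRNA, and their genes were examined here in ribosome profiling (Ribo-seq) of primary mouse myoblasts. The genes were chosen by symbol among protein-coding genes: a letter for the amino acid followed by "ars", with or without a final 1 or 2, plus Eprs, Farsa and Farsb. The rule found 37 of the 55573 genes in the deposited table. A symbol ending in 2 marks the mitochondrial enzyme, which gave 17 mitochondrial and 20 cytosolic genes.

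Ribo-seq reads the stretches of mRNA covered by ribosomes, so a gene's reads reflect its mRNA level and how densely ribosomes occupy it, and these contributions cannot be told apart here. WT mice gave 2 libraries and mice with the label eIF5A KO gave 2, 4 in all, each of primary myoblasts grown for 2 days with FGF. The study describes the KO as Pax7 CreERT2/+;eIF5A f/f, in which tamoxifen removes the gene in cells that express Pax7, and the Ribo-seq cells as coming from mice of 3 weeks. The WT littermates are described as Pax7 CreERT2/+ in its text and as Pax7 +/+;eIF5A f/f elsewhere, so whether the control cells carried Cre was not certain. All cells received cycloheximide before lysis. The number of mice behind each library was not given in the sources used here, so p-values measure the spread between these libraries only.

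In the cytosol, each synthetase recognises its amino acid and tRNA, and the charged tRNA is carried to the ribosome by the elongation factor eEF1A. Mitochondria translate their own few mRNAs with a separate set of enzymes, encoded in the nucleus and imported. Glycine and lysine are exceptions, since Gars and Kars each make both the cytosolic and the mitochondrial form. Mitochondria also lack a glutaminyl enzyme: Ears2 charges the glutamine tRNA with glutamate, and an amidotransferase converts it. Synthetases fall into class I and class II by the fold of their catalytic domain. In the cytosol 8 of them assemble on the scaffold proteins Aimp1, Aimp2 and Eef1e1 into the multi-synthetase complex. Several cytosolic synthetase genes are targets of Atf4, a transcription factor of the amino acid response that binds CARE elements with the core TGATGNAA.

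That core was searched for on both strands of synthetase promoters. RefSeq promoters, from 250 bases before to 50 bases after each start site on GRCm38.p6, were at hand for 13 cytosolic and 14 mitochondrial members. The core occurred in 5 of the 13 cytosolic promoters, those of Aars, Gars, Iars, Tars and Yars, and in 0 of the 14 mitochondrial ones. For comparison, 4.51% of the 27025 symbols in the promoter table, and 3.97% of its 32851 promoters, held it. A window of 30 bases around the match nearest the start site is given for each gene, 5′ to 3′ on the strand of the gene, with the core or its reverse complement in capitals. The windows lay at chr6:55037960-55037989 for Gars, chr8:111033840-111033869 for Aars, chr13:49682126-49682155 for Iars, chr15:11399655-11399684 on the minus strand for Tars and chr4:129189895-129189924 for Yars, the others on the plus strand. The RefSeq start sites lay 6 (Gars), 7 (Tars), 30 (Iars), 143 (Yars) and 698 (Aars) bases from the gene starts of the deposited table.
Gars: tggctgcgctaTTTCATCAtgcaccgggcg
Aars: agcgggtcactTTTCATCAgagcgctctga
Iars: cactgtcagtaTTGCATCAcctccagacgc
Tars: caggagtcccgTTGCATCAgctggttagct
Yars: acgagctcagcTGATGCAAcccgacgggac
A match is a description of letters in the window and not evidence that a factor was bound there. The promoters of Cars, Hars, Lars, Nars, Rars, Vars, Wars, Hars2 and Pars2 were not analysed here.

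The libraries held 642429 to 704006 gene-assigned reads. Protein-coding genes took 41.5% of them in WT replicate 1, 33.9% in WT replicate 2, and 65.4% and 59.2% in the KO-labelled libraries. Mitochondrial rRNA took 39.1% and 30.1% in WT and 15.0% and 18.5% in the KO-labelled libraries. Values are RPKM, in which reads are divided by gene length and by a library size. The library sizes that the values imply matched median-of-ratios size factors computed here, not total reads. Eif5a itself, the targeted gene, had 34.9 and 65.2 RPKM in WT and 60.3 and 59.4 RPKM in the KO-labelled libraries, a log2 difference of 0.32 ± 0.48 (SE, limma adjusted p = 0.839). The whole-gene value does not check a deletion of part of the gene, and the groups are therefore named by their labels. All 7 myoblast markers were detected in WT, with summed levels of 236 and 191 RPKM in WT against 115 and 127 RPKM in the KO-labelled libraries. Among them Pax7, the stem cell factor of muscle, had 8.49 and 3.62 RPKM in WT against 0.941 and 1.48 RPKM, and Myf5, a myogenic factor, had 6.37 and 4.08 RPKM against 1.06 and 0 RPKM. WT replicate 1 stood apart in the summed level of differentiated muscle markers. The sum was 227 RPKM there and 54.0, 33.0 and 28.9 RPKM in WT replicate 2 and the KO-labelled libraries. Most of the sum in WT replicate 1 came from Acta1 with 129 RPKM and Myog with 91.0 RPKM. Myh3 was also higher there than in WT replicate 2, whereas Ckm and Tnnt3 were lower.

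Cytosolic synthetase genes were read at far higher levels than mitochondrial ones. Their median was 10.4 RPKM in WT replicate 1, 17.0 RPKM in WT replicate 2, and 21.1 and 22.8 RPKM in the KO-labelled libraries. The mitochondrial median was 1.60 and 1.43 RPKM in WT and 1.71 and 1.68 RPKM in the KO-labelled libraries. Every cytosolic gene had at least 9 reads in each library, whereas 8 of the 17 mitochondrial genes had 3 reads or fewer in at least 1 library. All 20 cytosolic genes and 12 mitochondrial genes had a mean of at least 1 RPKM and were tested. Pars2, Vars2, Nars2, Mars2 and Wars2, the mitochondrial enzymes for proline, valine, asparagine, methionine and tryptophan, were below it.

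**Figure D1:**
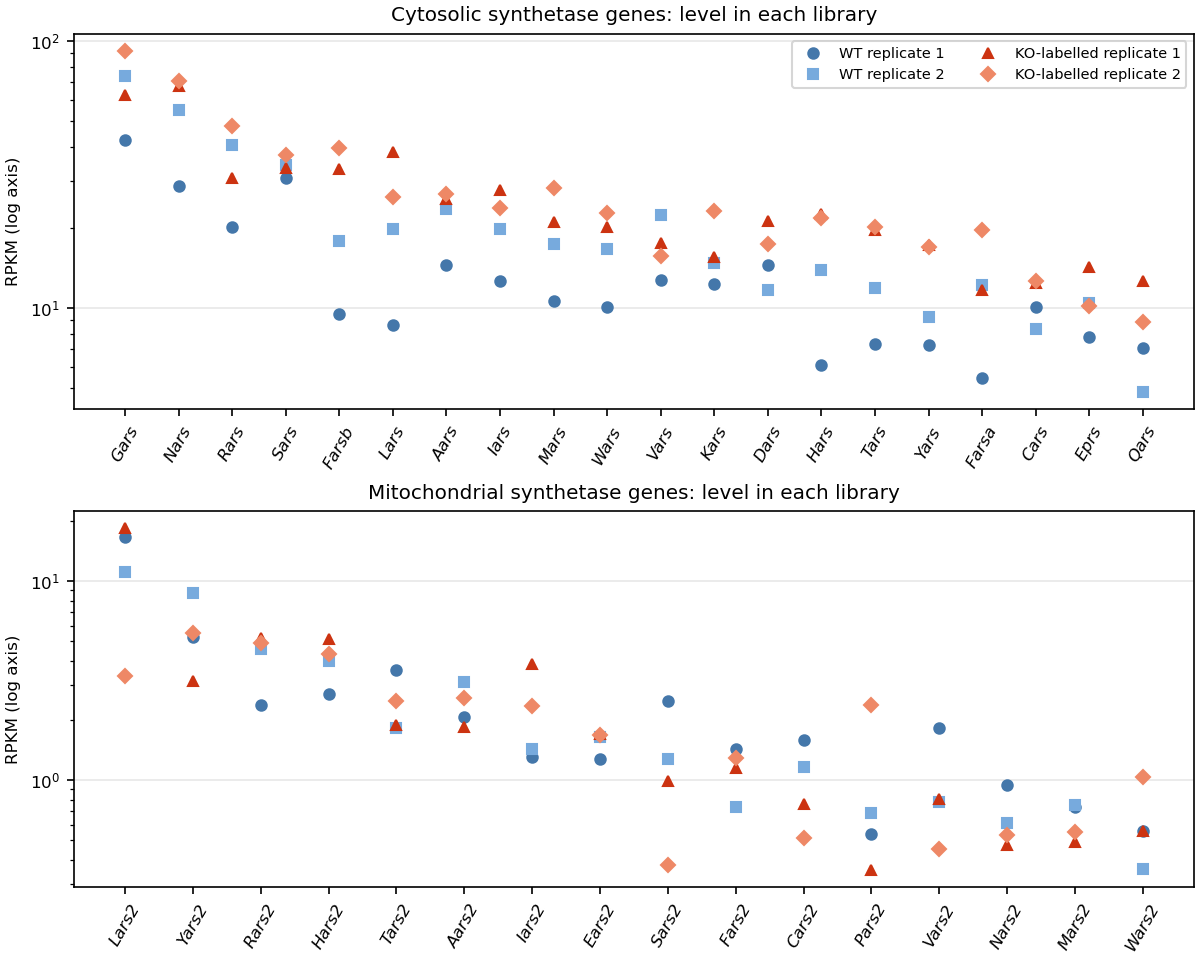
RPKM (log axis) of cytosolic genes (top) and mitochondrial genes (bottom) in the 4 libraries, ordered by mean level, with 1 point per library. Apart from Lars2, mitochondrial genes lay below 10 RPKM in all libraries, and the lowest point of most cytosolic genes was WT replicate 1, the lowest library for 17 of the 20.

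Gene length in the table includes untranslated exons, so levels are compared between genes as RPKM recomputed on the length of the coding sequence. On that scale Nars, which charges asparagine, was the highest cytosolic gene with a mean of 144, followed by Sars (serine) with 108, Gars with 96.5 and Aars (alanine) with 72.3. Qars (glutamine) with 23.6 and Mars (methionine) with 24.2 were the lowest. Among mitochondrial genes Lars2 (leucine) stood at 50.9, Yars2 (tyrosine) at 12.6 and Hars2 (histidine) at 11.4, and Vars2 was the lowest with 1.66. Neighbours in this order had overlapping ranges over the libraries, 74.2 to 184 for Nars, 98.0 to 119 for Sars, 60.7 to 131 for Gars and 46.3 to 85.7 for Aars. Lars2 ranged from 13.7 to 75.8 and Yars2 from 7.01 to 19.5 on this scale. The mitochondrial enzyme was below the cytosolic enzyme for the same amino acid in 16 of 17 pairs by the mean over libraries on the coding scale, with a median ratio of 12.2% and a lowest ratio of 2.17% for Nars2 to Nars. The exception was Lars2, at 145% of Lars by that mean. On the coding scale it was above Lars in 3 libraries, at 522% and 151% in WT and 131% in KO replicate 1. It was below Lars at 34.7% in KO replicate 2. The group means were 57.1 against 21.6 in WT and 44.8 against 48.8 in the KO-labelled libraries. That scale sets all reads of a gene against its coding length, 24.4% of gene length for Lars2 and 65.8% for Lars. By deposited RPKM, Lars2 was above Lars in WT replicate 1 alone, at 16.8 against 8.65. Its mean by RPKM was 12.4 against 23.2 for Lars.

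The question between the groups was whether synthetase footprints differed with the eIF5A label. Cytosolic genes were mostly higher in the KO-labelled libraries: 19 of 20 log2 differences were above 0, with a median of 0.67 and a range of -0.03 to 1.41. Over the 9877 protein-coding genes tested the median was 0.05, 53.1% were above 0, and 15.7% exceeded the cytosolic median. In 14 of the 20 cytosolic genes both libraries labelled KO were above both WT libraries and in 0 below, where 20.1% of all genes tested and 22.4% of protein-coding genes tested were higher without overlap, and 20.3% and 19.3% were lower. Scaled to total reads instead, all 20 cytosolic and 7 mitochondrial genes were higher without overlap, as were 41.9% of all genes tested, against 7.54% lower. No synthetase gene passed an adjusted p of 0.05 in limma, a threshold that 12 of the 11363 genes tested passed (0.106%), and voom on the recovered reads called 0 synthetase genes as well. At an unadjusted p under 0.05 the genes Farsb, Tars and Yars were called, all higher (background 2.86% higher). With a change of at least 2-fold added, Farsb and Tars remained (background 2.67% higher and 4.29% lower), and no member was lower by this rule. No synthetase gene passed this rule without WT replicate 1, KO replicate 1 or KO replicate 2, fits in which a group is a lone library and in which 3.39%, 1.75% and 2.31% of all genes tested were higher by it, although the log2 differences of Farsb were then 0.99, 1.53 and 1.28 and those of Tars 0.70, 1.03 and 1.00. Without WT replicate 2, where WT is also a lone library, the rule called 7 members, all higher, and 6.42% of all genes tested were higher by it, up from 2.67%.

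The size of the cytosolic difference rested in part on WT replicate 1. Without it the median log2 difference was 0.35, with 18 of 20 genes above 0, and without WT replicate 2 it was 0.94. Without either of the KO-labelled libraries in turn it was 0.73 and 0.60. An exact permutation test of 2 libraries against 2 cannot give a p under 0.333, so none was used.

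**Figure D2:**
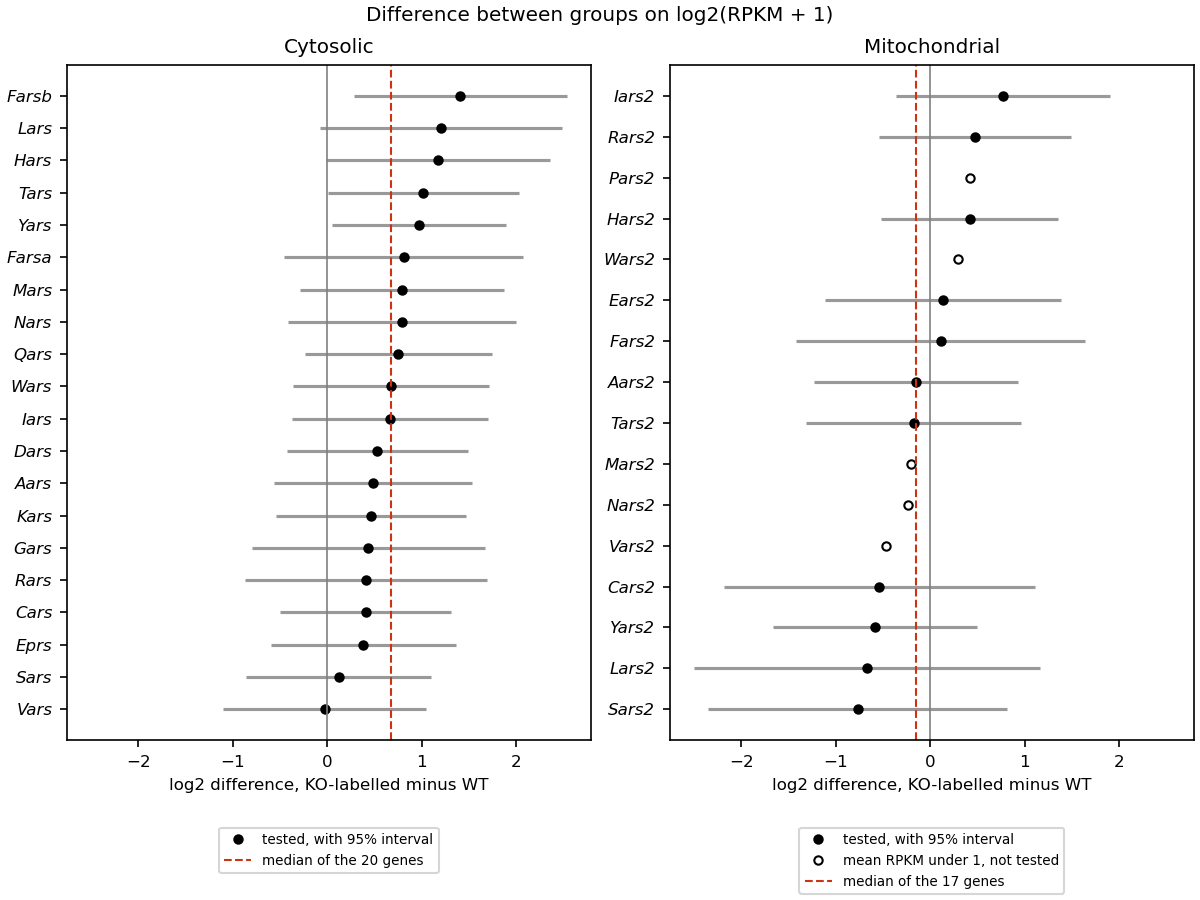
Log2 difference, KO-labelled minus WT, on log2(RPKM + 1) for cytosolic (left) and mitochondrial (right) genes, with filled points and 95% limma intervals for genes tested, open points for genes below 1 RPKM and a dashed line at each median. The interval of 3 cytosolic genes, Farsb, Yars and Tars, lay above 0, and the other 17 cytosolic intervals and all mitochondrial intervals drawn spanned 0.

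Phenylalanine is charged in the cytosol by an enzyme of 2 kinds of subunit, the catalytic alpha subunit encoded by Farsa and the beta subunit encoded by Farsb. Farsb had the largest difference of all members. Its levels were 9.50 RPKM in WT replicate 1, 17.8 RPKM in WT replicate 2, and 33.2 and 39.7 RPKM in the KO-labelled libraries, from 15, 22, 79 and 84 reads, and the groups did not overlap. The log2 difference was 1.41 ± 0.46 (SE, adjusted p = 0.660 in limma). Farsa had 5.48, 12.2, 11.7 and 19.6 RPKM in the same order, and here WT replicate 2 lay above KO replicate 1. The log2 difference of Farsa was 0.81 ± 0.51, with 0.30 without WT replicate 1 and 1.32 without WT replicate 2. Farsb lies at chr1:78417975-78488897 on the minus strand and Farsa at chr8:84856989-84869257 on the plus strand (mm10).

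Tars and Yars charge threonine and tyrosine, and both carried the CARE core in the promoter windows shown above. Tars had 7.31 and 11.9 RPKM in WT and 19.6 and 20.1 RPKM in the KO-labelled libraries. The groups were apart, with a log2 difference of 1.01 ± 0.41 (SE, adjusted p = 0.672 in limma). Yars had 7.26 and 9.29 RPKM in WT and 17.3 and 16.9 RPKM in the KO-labelled libraries. Its libraries were close together within each group, and the log2 difference was 0.97 ± 0.38 (SE, adjusted p = 0.672 in limma). The tyrosyl enzyme is encoded at chr4:129189760-129219607 and the threonyl enzyme at chr15:11382301-11399665.

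Lars and Hars had larger differences than Tars and Yars, but their intervals spanned 0. This order turned without WT replicate 1, with 0.65 for Lars and 0.64 for Hars against 0.70 for Tars and 0.81 for Yars. Hars, the histidyl enzyme, had 6.10 and 13.9 RPKM in WT and 22.5 and 21.8 RPKM in the KO-labelled libraries (log2 difference 1.17 ± 0.48, adjusted p = 0.672 in limma). The WT libraries differed more from each other than the KO-labelled libraries did. Lars, the leucyl enzyme of the multi-synthetase complex, had 8.65, 19.8, 38.2 and 26.1 RPKM (log2 difference 1.20 ± 0.52, adjusted p = 0.675 in limma). KO replicate 1 was the highest library for Lars, and WT replicate 1 the lowest.

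The cytosolic genes with the highest RPKM were Gars, Nars, Rars and Sars. Gars, which supplies the glycyl enzyme of both compartments, had 42.5, 73.5, 62.9 and 91.7 RPKM, so WT replicate 2 was above KO replicate 1, and a log2 difference of 0.43 ± 0.50. The Gars difference was 0.047 without WT replicate 1 and 0.82 without WT replicate 2. Nars had 28.6, 55.1, 67.8 and 70.8 RPKM, with both libraries labelled KO higher (log2 difference 0.79 ± 0.49, adjusted p = 0.697 in limma). The Nars difference was 0.33 without WT replicate 1 and 1.25 without WT replicate 2. Rars, the arginyl enzyme, had 20.0, 40.8, 30.7 and 47.9 RPKM, with overlap, and its log2 difference of 0.41 ± 0.52 was -0.084 without WT replicate 1. Sars had 30.6, 34.3, 33.4 and 37.3 RPKM, a log2 difference of 0.12 ± 0.40. Vars, the valyl enzyme, was the cytosolic gene whose difference was below 0, at -0.03 ± 0.44, with 12.7, 22.3, 17.5 and 15.7 RPKM. For Vars the sign depended on the setting: it was above 0 when scaled to total reads, after correction for coding GC content and length, and when WT replicate 2 or KO replicate 2 was left out.

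The 8 synthetase genes of the multi-synthetase complex had a median log2 difference of 0.60, all above 0 and 6 without overlap, against 0.73 for the 12 outside it, of which 8 were without overlap, where 20.1% of all genes tested were higher without overlap. At an unadjusted p under 0.05 there were 0 genes in the complex and 3 outside it, where 2.86% of all genes tested were higher, and the difference between these sets was not tested. Kars, the lysyl enzyme of both compartments, had 12.3, 14.7, 15.6 and 23.0 RPKM, and its groups were just apart. Eprs, which joins the glutamyl and prolyl enzymes in 1 protein, had 7.79, 10.4, 14.3 and 10.2 RPKM and overlapping groups. Qars had 7.07, 4.84, 12.6 and 8.85 RPKM, and here WT replicate 2 was the lowest library. Iars, Mars and Dars, for isoleucine, methionine and aspartate, had log2 differences of 0.66, 0.79 and 0.53, each without overlap. The scaffold gene Aimp1 had 3.85 and 5.69 RPKM in WT and 7.68 and 9.96 RPKM in the KO-labelled libraries (log2 difference 0.78 ± 0.39, adjusted p = 0.676 in limma). Aimp2 and Eef1e1 had log2 differences of 0.31 and 0.80 with overlapping groups.

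The remaining cytosolic genes, Aars, Cars and Wars, for alanine, cysteine and tryptophan, had log2 differences of 0.48, 0.40 and 0.68. None of their groups overlapped, and Cars was narrow, with 10.1 and 8.38 RPKM in WT and 12.4 and 12.6 RPKM in the KO-labelled libraries. By class of the enzyme, the cytosolic median was 0.68 for 9 class I genes and 0.66 for 10 class II genes, Eprs belonging to both. Without Gars and Kars, which serve both compartments, the cytosolic median was 0.71 over 18 genes.

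Mitochondrial synthetase genes showed no common direction. Of 17 log2 differences 8 were above 0 and 9 below, with a median of -0.16 and a range of -0.77 to 0.77, and the median of the 12 genes tested was -0.024. Both libraries labelled KO were above both WT libraries for Rars2, Hars2, Iars2 and Ears2 and below them for Sars2, Cars2, Nars2 and Mars2, 4 each way. Among the 12 genes tested there were 4 higher and 2 lower, against 20.1% higher and 20.3% lower over all genes tested. The lower ones, Sars2 and Cars2, averaged 0.686 and 0.637 RPKM in the KO-labelled libraries and passed the filter of 1 RPKM only through WT. At these depths the 95% intervals of single genes were wide, from -2.36 to 0.82 for Sars2, a seryl enzyme gene with 5, 2, 3 and 1 reads.

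Lars2 was the mitochondrial member with the highest mean level and, at 0.75, the largest standard error among the members tested. Its levels were 16.8 and 11.1 RPKM in WT and 18.5 and 3.35 RPKM in the KO-labelled libraries, from 112, 58, 186 and 30 reads. The libraries labelled KO thus held both its highest and its lowest value, and the log2 difference was -0.67 ± 0.75. Without KO replicate 2 it was 0.41. Yars2 had 5.27, 8.76, 3.15 and 5.50 RPKM, from 9 to 14 reads each, with a log2 difference of -0.59 ± 0.44 and overlapping groups. With each library left out in turn, the Yars2 difference ranged from -0.91 to -0.27. Rars2, the arginyl enzyme, had 2.39 and 4.60 RPKM in WT and 5.17 and 4.91 RPKM in the KO-labelled libraries, from 4, 6, 13 and 11 reads. Iars2 had the largest positive difference, 0.77 ± 0.46, from 7, 6, 31 and 17 reads. It overlaps the gene Rab3gap2 on the opposite strand over 2034 bases, and Rab3gap2 had 29, 19, 75 and 62 reads. Whether strand was used in counting was not stated, so these genes cannot be fully separated.

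The lowest members gave almost no information on the groups. Nars2 had 4, 2, 3 and 3 reads, Mars2 5, 4, 5 and 5 reads, and Wars2 2, 1, 3 and 5 reads. In RPKM these were 0.952, 0.609, 0.475 and 0.533 for Nars2, 0.734, 0.752, 0.488 and 0.548 for Mars2, and 0.558, 0.357, 0.556 and 1.04 for Wars2. Differences for these genes were not detectable at this depth. The other mitochondrial genes not described singly, among them Aars2, Cars2, Ears2, Fars2, Hars2, Pars2, Tars2 and Vars2, had from 1 to 20 reads in a library.

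Summing reads over each compartment reduced the counting error of each library's value, not the spread between libraries. Cytosolic synthetase genes took 0.312% (95% Wilson interval 0.291 to 0.334) and 0.455% (0.427 to 0.484) of protein-coding reads in WT replicates 1 and 2. In the KO-labelled libraries they took 0.510% (0.490 to 0.531) and 0.564% (0.540 to 0.588). The means were 0.383% ± 0.101 in WT and 0.537% ± 0.0376 in the KO-labelled libraries (SD, n = 2). The gap between the WT libraries was larger than that between WT replicate 2 and KO replicate 1. Mitochondrial genes took 0.0747% and 0.0597% in WT and 0.0709% and 0.0397% in the KO-labelled libraries, in an order set by Lars2. Without Lars2 the shares were 0.0331%, 0.0331%, 0.0304% and 0.0319%, nearly level across the libraries.

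**Figure D3:**
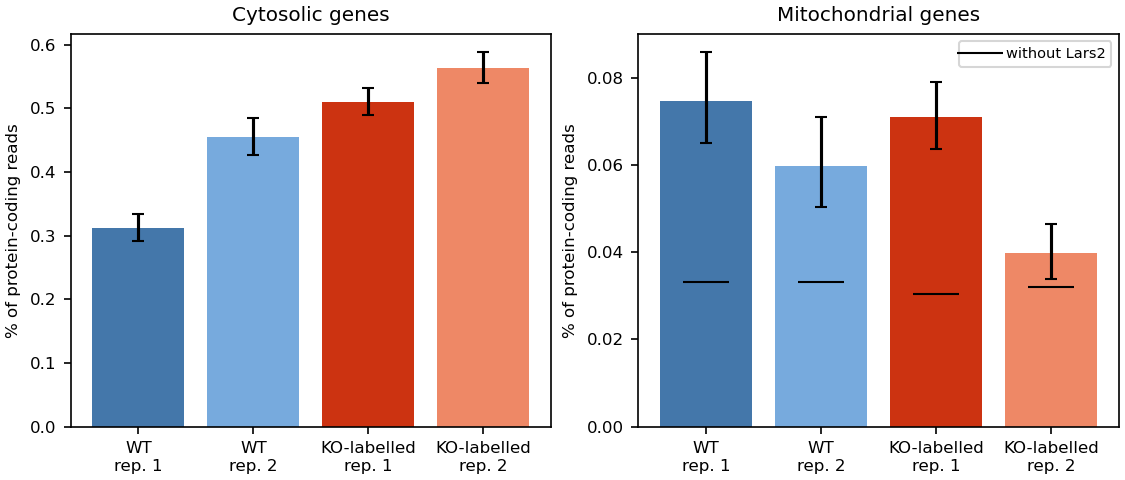
Share of protein-coding reads on the cytosolic (left) and mitochondrial (right) synthetase genes in each library, as bars from 0 with 95% Wilson intervals that cover counting error only, and, on the right, black lines for the share without Lars2. The cytosolic share was 0.312% and 0.455% in WT and 0.510% and 0.564% in the KO-labelled libraries.

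For 17 amino acids the ratio of the mitochondrial to the cytosolic gene was taken in each library as a difference of log2(RPKM + 1), with Eprs paired with both Ears2 and Pars2 and Fars2 paired with Farsa. The ratio was lower in both libraries labelled KO than in both WT libraries in 9 pairs, higher in 0, and overlapped in 8. No share over other gene pairs was computed, so this count has no background of its own. These ratios are built from the values already given and are no second observation of the cytosolic difference, and the 9 include Nars2 and Mars2, which were below 1 RPKM. The mean difference was below 0 in 14 of 17 pairs, with a median of -0.70. The pairs with separated groups were those for leucine, tyrosine, threonine, asparagine, methionine, cysteine, serine, histidine and alanine. For threonine the log2 ratio of Tars2 to Tars was -0.86 and -2.18 in WT and -2.83 and -2.59 in the KO-labelled libraries. For tyrosine it was -0.40 and -0.08 in WT and -2.14 and -1.46 in the KO-labelled libraries. For arginine, isoleucine and proline the mean difference was 0.06, 0.11 and 0.03. Reads on the 17 mitochondrial genes were 24.0% and 13.1% of those on the cytosolic genes in WT and 13.9% and 7.05% in the KO-labelled libraries, which overlapped. Without Lars2 these values were 10.6%, 7.27%, 5.96% and 5.67%. The pairs share libraries and are not independent replicates, so no p is given for their count.

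**Figure D4:**
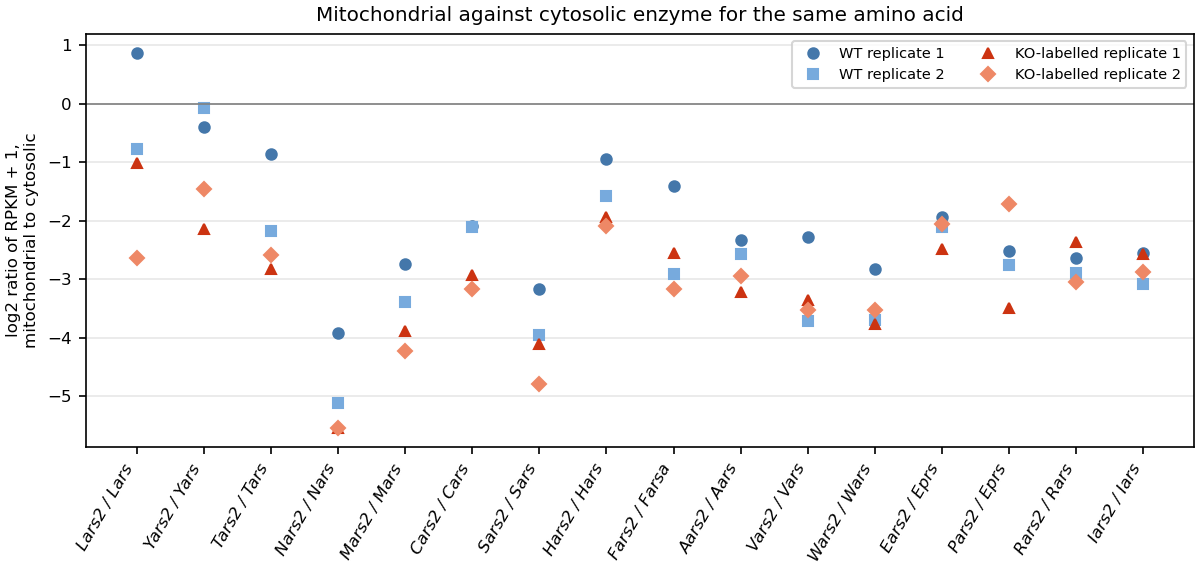
Log2 ratio of RPKM + 1 of the mitochondrial to the cytosolic gene for the amino acids shown, in the 4 libraries, ordered by the difference between the groups, with a line at equal levels. The triangles and diamonds of the KO-labelled libraries lay below both WT points in 9 pairs and above both in 0.

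Several sequence features that played no part in choosing the genes were compared. eIF5A is best known for helping ribosomes past runs of proline. A run of 3 or more prolines was encoded by 3 cytosolic genes, Kars, Mars and Vars, and by 3 mitochondrial genes, Fars2, Iars2 and Vars2, against 25.7% of the protein-coding genes tested. The cytosolic carriers had a median log2 difference of 0.47, and those with the CARE core had 0.66 against 0.64 for the 8 cytosolic genes whose promoter window lacked it. Coding GC content had a median of 52.0% in cytosolic and 55.4% in mitochondrial genes, and 53.2% in all protein-coding genes tested. Across genes, Spearman's rho of GC content with the log2 difference was -0.15 over the 20 cytosolic and -0.55 over the 17 mitochondrial genes, all measured in the same 4 libraries. With the trend on GC content and coding length removed, the cytosolic median was 0.54 and the mitochondrial median 0.0081. Mitochondrial and cytosolic proteins for an amino acid shared from 22.8% (leucine) to 70.5% (histidine) of aligned residues. Hars and Hars2 also overlap by 198 bases on opposite strands, so part of their reads may not be assignable. Iars shared 16.5% of its stretches of 28 bases with other transcripts, mostly those of the pseudogene Gm4849, which had 0 reads in all libraries. Aars shared 14.8%, mostly with Exosc6, which overlaps it on the same strand and had 0 reads in all libraries. Cars2 overlaps Naxd over 984 bases on the opposite strand, and Naxd had 8, 22, 28 and 21 reads.

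Genes that work beside the synthetases were read at the same settings. Of 14 scaffold and charging partners in the cytosol, 12 were tested, with a median log2 difference of 0.72, 1 gene higher at an unadjusted p under 0.05 and 0 lower, where 2.86% of all genes tested were higher and 4.46% lower. That gene was Dtd2, a deacylase that clears mischarged tRNA, with 1 read in each WT library and 9 and 8 reads in the KO-labelled ones (log2 difference 1.38 ± 0.50, adjusted p = 0.672 in limma). Dtd2 averaged 0.608 RPKM in WT and 3.19 RPKM in the KO-labelled libraries, so it passed the filter of 1 RPKM only through the latter. Of 12 mitochondrial charging and translation partners, 11 were tested, with a median of 0.32 and 0 genes past the unadjusted threshold. Of 23 amino acid response genes, 22 were tested, with a median of 0.23, 16 above 0 and 6 below. At an unadjusted p under 0.05, 2 of them were higher and 0 lower. The 2 were Psat1 of serine synthesis, with 5.85 and 13.0 RPKM in WT and 19.2 and 23.6 RPKM in the KO-labelled libraries, and Shmt2 of mitochondrial one-carbon metabolism, with 9.60 and 11.6 RPKM against 36.9 and 21.1 RPKM. Their log2 differences were 1.19 ± 0.48 and 1.32 ± 0.44, with adjusted p of 0.672 and 0.665 in limma. Atf4 had 80.9 and 82.8 RPKM in WT and 94.9 and 103 RPKM in the KO-labelled libraries, a log2 difference of 0.27 ± 0.43. Asns, asparagine synthetase and a known Atf4 target, had 19.4, 27.2, 39.9 and 46.6 RPKM (log2 difference 0.88 ± 0.42, adjusted p = 0.676). The lowest of the list was Cebpb, a transcription factor that partners Atf4, with 344 and 140 RPKM in WT and 47.7 and 165 RPKM in the KO-labelled libraries, groups that overlapped (log2 difference -1.30 ± 0.78, adjusted p = 0.697 in limma). Pycr1, of proline synthesis, was at -0.68 ± 0.64.

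Muscle markers were mostly lower in the KO-labelled libraries. Of the summed levels of other cell types, the endothelial one was higher there without overlap, the mural one lower without overlap, and the fibroblast, immune and glial ones overlapped. Of 7 myoblast markers 6 were below 0, with a median log2 difference of -1.03, and of the 6 differentiated muscle markers the 4 tested were all below 0, with a median of -1.50. Ckm, Tnnt3 and the myoblast marker Myf5 averaged under 1 RPKM in the KO-labelled libraries and passed the filter only through WT. Among those not tested, Myh3 averaged 1.51 RPKM in WT against 0.102 RPKM, and Mymk 0 RPKM against 0.730 RPKM. Desmin (Des), a muscle filament gene, had 46.0 and 40.1 RPKM in WT and 13.8 and 21.4 RPKM in the KO-labelled libraries. Myog, which drives differentiation, had 91.0 RPKM in WT replicate 1 and 4.26, 0.737 and 1.66 RPKM in the other libraries. Tnnt3, a fast muscle troponin, had 3.14 and 5.36 RPKM in WT against 0.696 and 0.782 RPKM. Fibroblast markers, with 7 of 7 detected, summed to 458 and 267 RPKM in WT and 763 and 338 RPKM in the KO-labelled libraries, and 5 of the 7 genes were above 0 with a median log2 difference of 0.39. Endothelial markers summed to 103 and 96.5 RPKM against 132 and 106 RPKM, with Kdr, a growth factor receptor, at 3.31 and 4.47 RPKM against 10.0 and 7.68 RPKM, and all 4 genes tested were above 0 with a median of 0.38. Immune markers summed to 17.1 and 25.6 RPKM against 20.8 and 20.3 RPKM; Itgam was at 0 in all libraries. The macrophage marker Cd68, the most abundant of them, had 15.8 and 23.6 RPKM in WT against 14.9 and 14.8 RPKM, while Adgre1, another, had 1, 3, 13 and 11 reads. Mural markers summed to 118 and 86.9 RPKM against 58.0 and 79.8 RPKM, with a median log2 difference of -0.59 over the 3 genes tested, and glial markers to 30.1 and 10.7 RPKM against 23.9 and 14.9 RPKM. The part of cell composition in the cytosolic difference was not tested, and without WT replicate 1, the library with the most Myog, the cytosolic median was 0.35. In bulk samples, fewer cells of a type and less RNA per cell cannot be told apart.

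**Figure D5:**
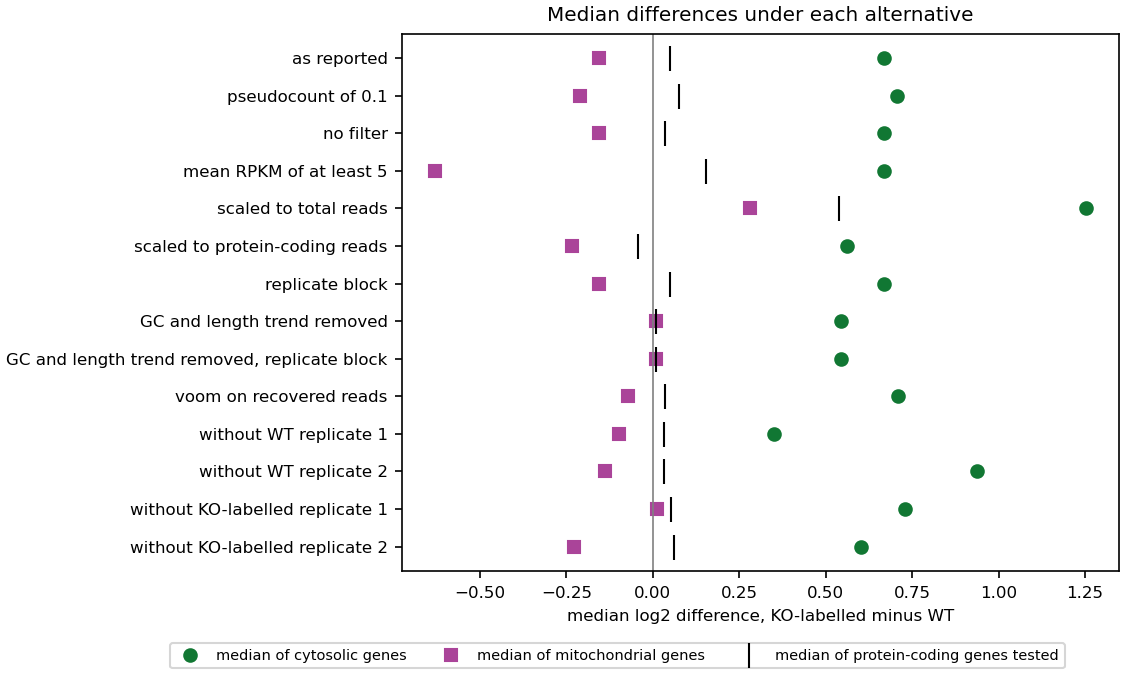
Median log2 difference, KO-labelled minus WT, of the cytosolic (circles) and mitochondrial (squares) synthetase genes under each processing alternative, with a tick for the median of all protein-coding genes tested. The cytosolic median lay between 0.35 and 1.25 and above the protein-coding median in each alternative drawn, and the mitochondrial median lay on either side of 0.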

How the data were processed

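Ribo-seq libraries of primary mouse myoblasts (2 WT and 2 labelled eIF5A KO) were sequenced as single-end reads of 50 bases. According to the study's methods, the authors removed low-quality, adapter, rRNA and tRNA reads, aligned the rest with TopHat2 to mm10 with Ensembl 97 gene models, and counted them with HTSeq. How reads with several matches, and strand, were treated was not stated. The authors deposited RPKM per gene. Dividing each value by that of 1 read gave whole reads (within 0.01) for 100% of values, and these reads supply depths and shares; the implied library sizes of 602863, 471136, 906990 and 807705 equalled the geometric mean of the totals times median-of-ratios size factors computed here.

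The main test was limma 3.58.1 in R 4.3.3 (trended eBayes, two-sided, Benjamini-Hochberg over all genes tested) on log2(RPKM + 1), a scale that understates the change of low genes, for the 11363 genes that averaged 1 RPKM or more. Errors of differences are standard errors. Voom on recovered reads was an alternative and called 79 genes, 0 of them synthetases. Share intervals are 95% Wilson intervals and cover counting error only, since reads carry no molecular identifiers. Coding lengths, GC content and protein comparisons came from GENCODE M21, in which all 37 members had the deposited position, and promoters from RefSeq.

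The members, gene lists and tests were chosen with earlier results of these data known. Library values are given for members with an unadjusted p under 0.05, the 3 largest differences in each direction per compartment at a mean RPKM of at least 5, members separated at least 2-fold, Gars, Kars, Eprs, Farsa and Farsb, and the 3 highest and lowest by mean RPKM in each compartment. Eif5a, Atf4 and Asns were always named, and genes of other lists at an unadjusted p under 0.05. Values of other members and of Cd68, Cebpb and Pycr1 were added after they were seen. Alternatives covered pseudocount, filter, scaling, replicate block, GC and length trend, voom, Gars and Kars, and each library left out in turn. Individual values of 1 mitochondrial member are not reported here or drawn, although counts and medians over the mitochondrial members include it.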

Additional observations from a re-analysis of the deposited data

How the results depend on the processing

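The cytosolic median log2 difference was above 0 in all alternatives run, and no synthetase gene passed an adjusted p of 0.05 in any of them. Over all genes tested the calls went from 12 to 79 with voom, 13 when scaled to protein-coding reads and 0 in the other alternatives. Scaling to total reads moved the median of all genes tested from near 0 to 0.50 and the cytosolic median to 1.25, which was 0.71 above the protein-coding median, while the mitochondrial median turned to 0.28. Under it 15 members passed the 2-fold rule, all higher, as did 13.9% of all genes tested in that direction, and 0 were lower without overlap (7.54% of all genes). Scaling to protein-coding reads gave 1 gene by the 2-fold rule (1.93% of all genes higher by it) and a mitochondrial median of -0.23. Without a filter 4 genes passed the 2-fold rule (1.94% of all genes higher by it), and a mean RPKM of at least 5 left 0 lower without overlap (21.4% of all genes), a mitochondrial median of -0.63 over the few genes kept, and a cytosolic minus mitochondrial median of 1.30. Voom gave 5 genes by the 2-fold rule (3.63% of all genes higher by it), 2 lower without overlap (24.0% of all genes) and a mitochondrial median of -0.072. The mitochondrial median was -0.21 at a pseudocount of 0.1, -0.024 over genes of at least 1 RPKM and -0.024 without Lars2, the last pair added after seeing the data. Correcting for coding GC content and length turned it to 0.0081, also under the replicate block, and 2 genes were lower without overlap (20.0% of all genes).

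Same-numbered WT and KO libraries correlated at 0.06 in their deviations, and whether they were paired was not stated. With the replicate block 1 gene passed the 2-fold rule (2.78% of all genes higher by it) and 0 the adjusted threshold.

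Leaving out each library in turn gave 0 to 7 genes by the 2-fold rule, where 1.75% to 6.42% of all genes were higher by it, 6 to 7 lower without overlap, where 30.4% to 39.4% of all genes were, and mitochondrial medians from -0.23 to 0.013, above 0 without KO replicate 1. Lars2 ranged from -1.75 to 0.41, Rars from -0.084 to 0.91 and Vars from -0.41 to 0.36. Vars was 0.56 when scaled to total reads and 0.38 after the GC and length correction, also under the block. Of 233 alternative values for 18 named genes 7 changed sign, and the cause was not tested. Depth limits the mitochondrial genes most, with 8 of 17 at 3 reads or fewer in a library.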
